A study of Gallus gallus with 4 samples.

Results

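Among the abundant genes of cultured chicken granulosa cells, 72 of 13819 listed genes formed a class that was moderately higher in cells of preovulatory follicles than in cells of prehierarchical follicles, with either plasmid. A gene entered the class when its mean over the 4 libraries was at least 30 FPKM and when the log2 ratio of preovulatory over prehierarchical cells was at least 1, a 2-fold difference, both with the FOXL2 plasmid and with the control plasmid. Genes with both log2 ratios at 1.5 or above were left out as a stronger class, which held 32 genes. FPKM stands for fragments scaled by transcript length and by library size, and ratios were taken after 1 FPKM was added to each value. The members were thus chosen by the expression values of all 4 libraries, and the phase ratios below are a description with no test.

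Granulosa cells form the somatic cell layer around the oocyte of a follicle. In the hen, follicles are selected one at a time from a pool of small follicles into a size hierarchy, and granulosa cells of the large follicles turn from growth towards steroid hormone production before ovulation. FOXL2, a forkhead transcription factor, is expressed by granulosa cells and known for its part in ovarian development.

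The preovulatory cells came from F2 to F4 follicles and the prehierarchical cells from small yellow follicles (SYF) of hens aged 26 weeks. The 4 groups were preovulatory cells with the pcDNA3.1-FOXL2 plasmid, preovulatory cells with empty pcDNA3.1, prehierarchical cells with pcDNA3.1-FOXL2 and prehierarchical cells with empty pcDNA3.1. All were primary cultures in M199 medium with 5% fetal bovine serum at 39°C. They were transfected after 18 h by lipofection and harvested 48 h later, so the controls had the same conditions of culture and transfection. The strain, the number of hens and any pooling are not stated in the sources. Each group had 1 library, so no value has a replicate error, and a difference between cell preparations cannot be told apart from phase or plasmid.

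The tables listed 12600 to 12724 genes per library, and the deposited FPKM summed to between 528405 and 556844. The gene identifiers were not paired with symbols, so members are named by Ensembl identifier, no gene function is given, and the levels of FOXL2 and of granulosa cell markers were not analysed here. The labels of phase and plasmid therefore stand without a check from marker genes. In these bulk libraries, fewer cells of a type and less RNA per cell cannot be told apart. The number of fragments per library is unknown. A rough guide came from 327 single-transcript genes that were not listed in every library and whose listed values were equal within 6%. Their values had a median of 0.225 FPKM, with quartiles of 0.13 and 0.37. If that median is taken as a single fragment, which was assumed, 30 FPKM would stand for about 133 fragments in a gene of their length. The lowest member value, 9.71 FPKM, would stand for about 43.2.

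All 72 members were listed in all 4 tables. They spanned a wide range of levels, given here per length of transcript. With the FOXL2 plasmid, members ran from 42.2 to 1204 FPKM in preovulatory cells with a median of 117, and from 11.2 to 519 FPKM in prehierarchical cells with a median of 38.9. With the control plasmid they ran from 40.5 to 1187 FPKM in preovulatory cells with a median of 105, and from 9.71 to 448 FPKM in prehierarchical cells with a median of 39.2. The plot of levels by gene shows 2 bands that keep apart along the whole range. In every member the lower preovulatory value stood above the higher prehierarchical value, by 1.71 to 2.83 times, with a median of 2.28 times. The rule asked for this direction within each plasmid, but not between a library with FOXL2 and one with control. The separation was not tested, and nothing is read from it.

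**Figure D1:**
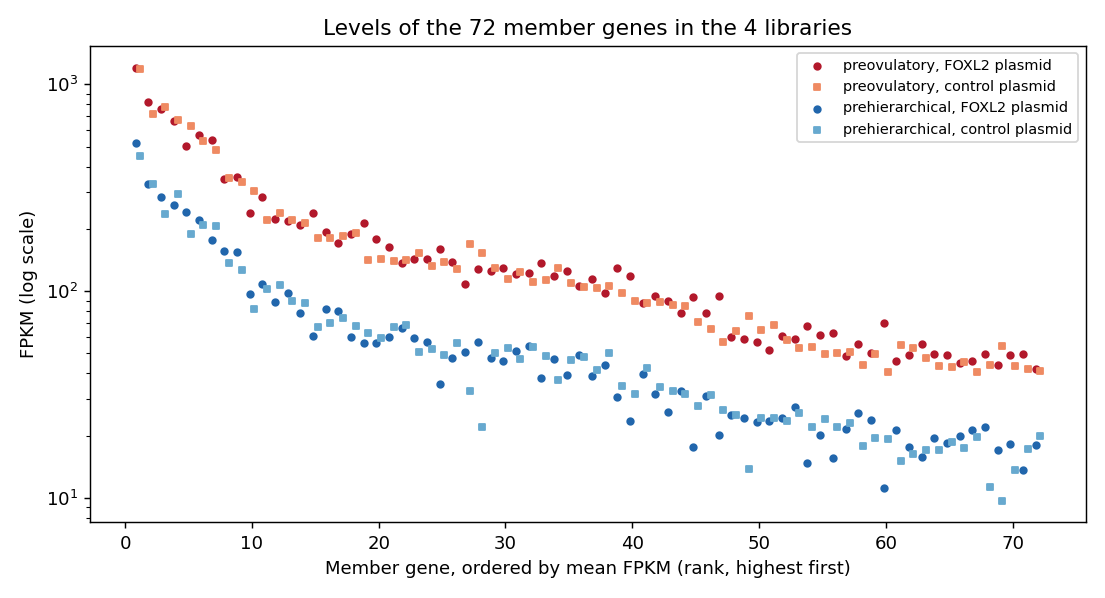
FPKM on a log axis of each of the 72 members, ordered by mean FPKM from the highest on the left; the 4 marker styles are the 4 libraries, 1 value per gene and library, with FOXL2 and control points set slightly apart. The preovulatory points run from 40.5 to 1204 FPKM and the prehierarchical points from 9.71 to 519 FPKM, and for each gene both preovulatory points lie above both prehierarchical points.

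The most abundant member was ENSGALG00000024372, a gene with 4 transcripts in the tables. It stood at 1204 FPKM in preovulatory and 519 FPKM in prehierarchical cells with the FOXL2 plasmid, and at 1187 FPKM in preovulatory and 448 FPKM in prehierarchical cells with the control plasmid. Both preovulatory libraries were high and both prehierarchical libraries were low, with log2 ratios of 1.21 with FOXL2 and 1.40 with control. The next was ENSGALG00000015326, with 817 FPKM in preovulatory and 330.0 FPKM in prehierarchical cells with FOXL2, and 716 FPKM in preovulatory and 329 FPKM in prehierarchical cells with control. Its prehierarchical libraries were almost equal to each other, and its log2 phase ratios were 1.31 with FOXL2 and 1.12 with control.

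Together the members held 2.39% of all FPKM in the preovulatory FOXL2 library and 2.26% in the preovulatory control library. In prehierarchical cells they held 0.872% with FOXL2 and 0.877% with control. About the same part of that sum lay in few genes in every library, since the 10 highest members of a library held between 47.9% and 50.5% of the class's FPKM. By mean level, 26 members lay from 30 to 50 FPKM, 23 from 50 to 100, 14 from 100 to 200 and 9 at 200 or above. These were 1.89%, 1.94%, 2.78% and 2.62% of all genes of the same level. The class is thus spread over the abundant genes rather than drawn from 1 level. Of the members, 6 had more than 1 transcript in the tables, or 8.33%, against 6.43% of all 3405 genes whose mean reached 30 FPKM (called abundant genes here); RSEM shares fragments among similar transcripts, which FPKM values do not show.

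A look at the thresholds shows how the class sits among its neighbours. Of the 3405 abundant genes, 203 (5.96%) reached a 2-fold higher level in preovulatory cells with the FOXL2 plasmid, 178 (5.23%) with the control plasmid and 104 (3.05%) with both, and the last number is the 72 members and the 32 genes of the stronger class. Another 99 abundant genes passed 2-fold with FOXL2 only and 74 with control only. The member with the lowest control ratio had 45.7 FPKM in preovulatory and 21.3 FPKM in prehierarchical cells with FOXL2, and 40.5 FPKM in preovulatory and 19.7 FPKM in prehierarchical cells with control, log2 ratios of 1.07 with FOXL2 and 1.0 with control. Just outside stood a gene with log2 ratios of 1.503 with FOXL2 and 0.997 with control. At the other limit, the member whose smaller log2 ratio was nearest to 1.5 had 1.63 with FOXL2 and 1.49 with control, while the nearest gene of the stronger class had 1.69 with FOXL2 and 1.54 with control. On the level axis, the lowest member had a mean of 30.3 FPKM and the first gene below the limit one of 29.98.

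By the rule, the smaller log2 phase ratio of each member lies from 1 to under 1.5, so the spread of the phase ratios is partly set by it. The log2 ratio of preovulatory over prehierarchical cells had a median of 1.31 with FOXL2, with quartiles of 1.16 and 1.57 and a range of 1.03 to 2.54. With control the median was also 1.31, with quartiles of 1.15 and 1.43 and a range of 1.0 to 2.73. Part of this difference is shared by the libraries as a whole, since the median log2 phase ratio of the 10639 genes whose mean reached 1 FPKM was 0.23 with FOXL2 and 0.17 with control; over the abundant genes, which are nearer to the members in level, it was 0.12 with FOXL2 and 0.13 with control. With the median log2 level of the 10639 genes set equal in all libraries, which takes 0.28 with FOXL2 and 0.20 with control off each phase ratio, the members' median phase ratio was 1.03 with FOXL2 and 1.11 with control, and the lowest ratio of a member was 0.75 with FOXL2 and 0.80 with control. On that scale 27 of the 72 members were still at least 2-fold higher with both plasmids, and 45 were under 2-fold with at least 1 plasmid. With the median of the abundant genes set equal instead, a setting added after seeing the data, the ratios dropped by 0.12 with FOXL2 and 0.13 with control, and 48 members were still at least 2-fold higher with both plasmids. With these 2 median scalings, 24 to 45 of the members thus fell under 2-fold with at least 1 plasmid. With FPKM rescaled to the same sum in every library, also added after seeing the data, 71 of the 72 stayed members. The direction of the members could not turn with either median scaling, since the rule's lower limit of 1 is larger than either shift.

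The members fell into 3 kinds by the rule's own limits. Both log2 ratios were under 1.5 in 37 members, the FOXL2 ratio alone reached 1.5 in 22 members, and the control ratio alone reached it in 13 members. Median levels of the 37 were 121 FPKM in preovulatory and 47.3 FPKM in prehierarchical cells with FOXL2, and 111 FPKM in preovulatory and 50.04 FPKM in prehierarchical cells with control. In the 22, the medians with FOXL2 were 117 FPKM in preovulatory and 31.2 FPKM in prehierarchical cells. With control the same 22 had medians of 93.7 FPKM in preovulatory and 34.6 FPKM in prehierarchical cells. In the 13, the medians were 108 FPKM in preovulatory and 47.1 FPKM in prehierarchical cells with FOXL2, and 129 FPKM in preovulatory and 22.0 FPKM in prehierarchical cells with control. The prehierarchical control library is the low one in these 13 genes, and the prehierarchical FOXL2 library is the lower one in the 22.

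**Figure D2:**
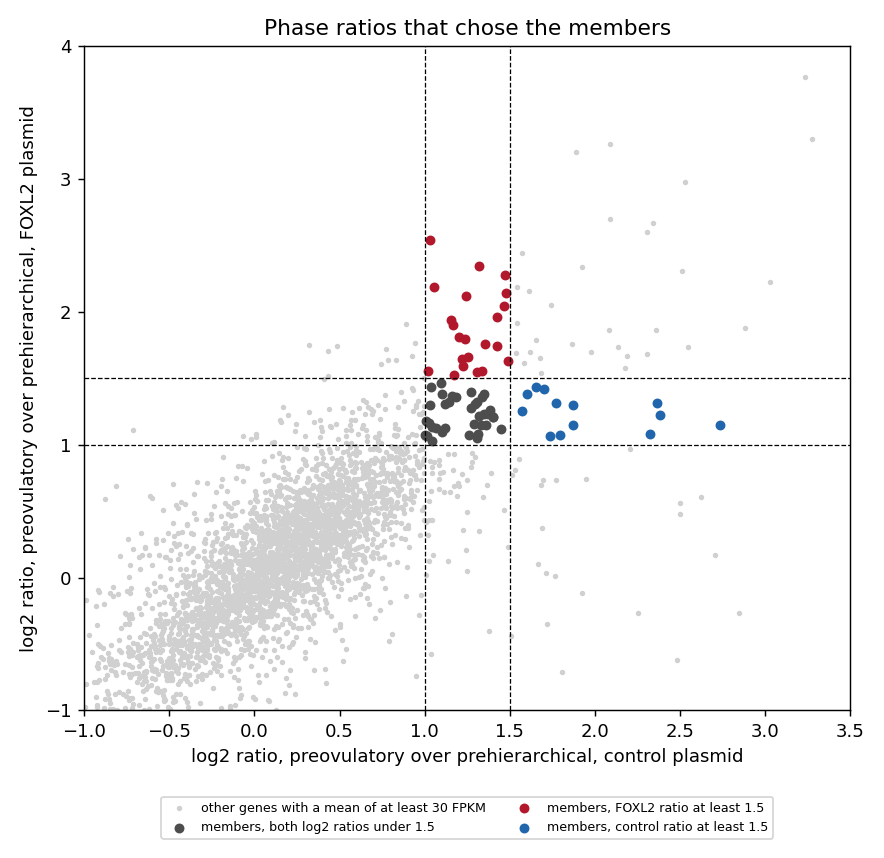
Log2 ratio of preovulatory over prehierarchical FPKM (1 FPKM added) with the FOXL2 plasmid on the vertical axis and with the control plasmid on the horizontal axis, 1 point per gene; grey points are the other abundant genes, coloured points are the members in 3 kinds, and dashed lines mark log2 ratios of 1 and 1.5. The 37 members with both ratios under 1.5 fill the small square, the 22 with a higher FOXL2 ratio lie above it up to 2.54, and the 13 with a higher control ratio lie to its right up to 2.73; grey genes outside the axes are not drawn.

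The members with the widest mean phase ratio belong to these unequal kinds. The rule keeps the smaller ratio under 1.5, so a mean above 1.5 requires this. ENSGALG00000008028 had 127 FPKM in preovulatory and 56.9 FPKM in prehierarchical cells with FOXL2, and 152 FPKM in preovulatory and 22.0 FPKM in prehierarchical cells with control. Its log2 phase ratio was 1.15 with FOXL2 and 2.73 with control, and its prehierarchical control library stood well below the other 3. ENSGALG00000008828 went the other way, with 118 FPKM in preovulatory and 23.6 FPKM in prehierarchical cells with FOXL2, and 89.6 FPKM in preovulatory and 31.7 FPKM in prehierarchical cells with control. Its log2 phase ratio was 2.28 with FOXL2 and 1.47 with control.

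The plasmid comparison asks whether these genes differ between FOXL2 and control libraries. The mean of the FOXL2 ratios over the phases is a contrast that did not choose the members, but the gap between the phases is tied to the phase ratios, so the counts within a phase are a description. In 40 of the 72 the FOXL2 and control levels were within 1.2-fold of each other in both phases (55.6%), against 2385 of the 3405 abundant genes (70.0%). In preovulatory cells 0 members were 2-fold higher with FOXL2, where the background was 0.498% of 10639 genes, and 0 were 2-fold lower, where it was 0.949%. In prehierarchical cells 1 member was 2-fold higher, ENSGALG00000008028, against a background of 1.06%, and 0 were 2-fold lower, against 0.658%. Among abundant genes alone those backgrounds were 0.0587% higher and 0.352% lower in preovulatory cells, and 0.675% higher and 0% lower in prehierarchical cells. The members' counts of 0 and 1 of 72 are near those shares.

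At 1.2-fold, the members were more often apart than the abundant genes in 3 of the 4 directions. In preovulatory cells 14 members were higher with FOXL2 (19.4%, against 9.75% of abundant genes) and 6 were lower (8.33%, against 10.8%). In prehierarchical cells 13 were higher (18.1%, against 8.84%) and 11 were lower (15.3%, against 9.72%). The gap between the FOXL2 ratios equals that between the phase ratios, so the rule enters these counts. Of the 14, 12 belong to the 22 members with a FOXL2 phase ratio of at least 1.5, as do 10 of the 11. Of the 13, 10 belong to the 13 members with a control phase ratio of at least 1.5. The 37 other members were below the abundant genes in each share. They had 5.41% higher and 2.70% lower in preovulatory cells, and 8.11% higher and 2.70% lower in prehierarchical cells. These differences in share were not tested.

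At 1.5-fold, 2 members were higher with FOXL2 in preovulatory cells (2.78%, against 0.852% of abundant genes) and 1 was lower (1.39%, against 1.64%). In prehierarchical cells 5 were higher (6.94%, against 1.70%) and 2 were lower (2.78%, against 0.852%). All 5 of the higher genes belong to the 13 members with a control phase ratio of at least 1.5, and both of the lower genes to the 22 with a FOXL2 phase ratio of at least 1.5. The phase ratios that define these kinds hold the same values, so no test is given.

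The median FOXL2 over control log2 ratio of the members was 0.09 in preovulatory cells, where it was 0.00 over 10639 genes and -0.01 over the abundant genes. In prehierarchical cells it was -0.01 in the members, -0.05 over 10639 genes and 0.00 over the abundant genes. The FOXL2 library was the higher one for 43 of 72 members in preovulatory cells (59.7%, against 47.2% of abundant genes) and for 35 in prehierarchical cells (48.6%, against 50.1%). The 43 were 21 of the 22 members with a FOXL2 phase ratio of at least 1.5, 2 of the 13 with such a control ratio and 20 of the other 37 (54.1%). The SD of the ratios over members was 0.25 in preovulatory and 0.35 in prehierarchical cells, against 0.24 and 0.25 in that order over abundant genes. The rule enters these shares, medians and SDs through the kinds of member, so they are a description. The sign of the prehierarchical median depends on scaling, since it was 0.05 with the library medians set equal.

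In preovulatory cells the highest FOXL2 ratio was that of ENSGALG00000016415, at 70.0 FPKM with FOXL2 against 40.5 FPKM with control, a log2 ratio of 0.77. In prehierarchical cells the same gene stood at 11.2 FPKM with FOXL2 against 19.3 FPKM with control, a log2 ratio of -0.73 and the lowest of the class. Its phase ratio was accordingly the widest of the class with FOXL2, at 2.54, and close to the limit with control, at 1.03. ENSGALG00000002991 followed in preovulatory cells, at 95.1 FPKM with FOXL2 against 56.6 FPKM with control, a log2 ratio of 0.74. In prehierarchical cells it stood at 20.1 FPKM with FOXL2 against 26.7 FPKM with control, a log2 ratio of -0.40. In both genes the 2 phases moved in opposite directions.

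The lowest preovulatory ratio was that of ENSGALG00000005069, at 108 FPKM with FOXL2 against 169 FPKM with control, a log2 ratio of -0.64. In prehierarchical cells it was higher with FOXL2, at 50.7 FPKM against 33.0 FPKM with control, a log2 ratio of 0.60. ENSGALG00000005254 was next in preovulatory cells, at 52.0 FPKM with FOXL2 against 68.4 FPKM with control, a log2 ratio of -0.39. Its prehierarchical libraries were nearly level, at 23.5 FPKM with FOXL2 against 24.4 FPKM with control and a log2 ratio of -0.05.

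In prehierarchical cells ENSGALG00000008028 ranked first, at 56.9 FPKM with FOXL2 against 22.0 FPKM with control, a log2 ratio of 1.33; in preovulatory cells its log2 ratio was -0.25. ENSGALG00000002771 came after it with 22.0 FPKM with FOXL2 against 11.3 FPKM with control in prehierarchical cells, a log2 ratio of 0.90. In preovulatory cells it had 49.9 FPKM with FOXL2 against 44.0 FPKM with control, a log2 ratio of 0.18, so both phases lay on the same side. At the low end, after ENSGALG00000016415, ENSGALG00000010836 had 17.7 FPKM with FOXL2 against 27.9 FPKM with control in prehierarchical cells, a log2 ratio of -0.63. In preovulatory cells it was on the other side, at 93.8 FPKM with FOXL2 against 71.2 FPKM with control and a log2 ratio of 0.39.

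Opposite signs in the 2 phases were found for 44 of the 72 members, or 61.1%, against 60.6% of 10639 genes and 65.6% of abundant genes. This share pools kinds of member that the rule sets apart, so its nearness to the background is not read as a result. Of the 44, 26 were higher with FOXL2 in preovulatory and lower in prehierarchical cells, and 18 had the reverse. The split of the abundant genes leaned the other way, with 1067 of 3405 (31.3%) in the first pattern and 1165 (34.2%) in the reverse. Both ratios were above 0 in 17 members (23.6%, against 15.9% of abundant genes) and below 0 in 11 (15.3%, against 18.5%). The kinds of member differ here by construction, since a wider phase ratio with FOXL2 means that the preovulatory FOXL2 ratio exceeds the prehierarchical one. Among the 22 members of that kind, 21 were higher with FOXL2 in preovulatory and lower in prehierarchical cells, with median log2 ratios of 0.29 and -0.24 in that order. Among the 13 members with the wider control ratio, 11 had the reverse, with medians of -0.25 in preovulatory and 0.39 in prehierarchical cells. The rule used these gaps, so both counts are a description. The 37 members with both phase ratios under 1.5 had medians of 0.02 in preovulatory and 0.03 in prehierarchical cells, and 31 of them stayed within 1.2-fold in both phases. Opposite signs were found for 12 of these 37 (32.4%), in which the rule keeps the gap small.

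**Figure D3:**
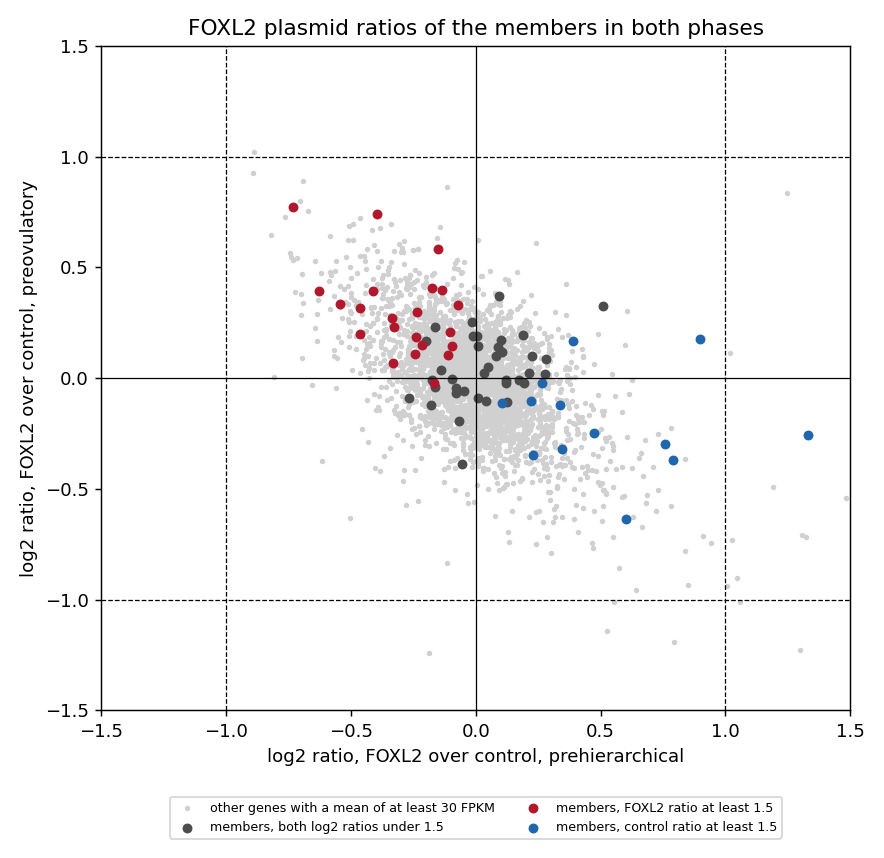
Log2 ratio of FOXL2 over control FPKM (1 FPKM added) in preovulatory cells on the vertical axis and in prehierarchical cells on the horizontal axis, 1 point per gene; grey points are the other abundant genes, coloured points are the 3 kinds of member, solid lines mark 0 and dashed lines mark 2-fold. Of the members, 1 lies beyond a dashed line, at 1.33 in prehierarchical cells; 21 of the 22 members with the wider FOXL2 phase ratio lie upper left and 11 of the 13 with the wider control ratio lie lower right. The axes leave out 11 grey genes.

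Across the 72 members, the FOXL2 ratios of the 2 phases correlated with r = -0.58 (Pearson) and rho = -0.53 (Spearman); over all 3405 abundant genes, members included, these were -0.56 and -0.46. Within the 37 members with both phase ratios under 1.5, the sign was the other way, with r = 0.32 and rho = 0.27. The 2 ratios share no library, but genes are not independent replicates, and the rule's limits on the phase ratios also bound the gap between the FOXL2 ratios, so the values are a description. In the headers, the value column of the preovulatory control library ends in 1 and that of the prehierarchical FOXL2 library in 2, and the other columns end in no number. The sources do not say what these numbers mark. The 2 numbered libraries are 1 of each phase and 1 of each plasmid. A difference that goes with the numbers therefore cannot be told apart from a plasmid difference that varies by phase.

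An additive limma model of phase and plasmid tested for a plasmid difference common to the phases, fitted to all 10639 genes with Benjamini-Hochberg adjustment. With 1 residual degree of freedom for each gene, its error comes from the gap between the FOXL2 ratios of the 2 phases. That error is moderated by a variance that limma estimates over all genes by level. The gap mixes differences between single cultures with any plasmid difference that varies by phase, and these cannot be told apart. The model had no replicate cultures of a group, so no spread between replicates enters its p-values. It called 0 of the 72 members at an adjusted p under 0.05, where the background over all genes was 0%. Over the abundant genes the FOXL2 ratios of the 2 phases correlated negatively (r = -0.56), which widens the gap that serves as error. The fit was thus unlikely to call a gene, and its 0 calls are not read as absence of a plasmid difference. An unadjusted p under 0.05 was found for 2 members (2.78%) and for 1.05% of all genes. The gap that serves as error equals in size the gap between the phase ratios, on which the rule acts. It is kept small in members with both phase ratios under 1.5, such as ENSGALG00000006649, and is wider in many others. The members' p-values and the 2 shares are therefore a description. Most of all genes are less abundant than the members, and abundant genes were not counted apart. Both of the 2 members were higher with FOXL2. ENSGALG00000002771 had a log2 difference of 0.54 (SE 0.21, unadjusted p = 0.046 and adjusted p = 1 by limma). The other, ENSGALG00000006649, was chosen after its values were known and had 55.6 FPKM with FOXL2 against 44.1 FPKM with control in preovulatory cells and 25.8 FPKM with FOXL2 against 17.9 FPKM with control in prehierarchical cells. Its log2 difference was 0.42 (SE 0.15, unadjusted p = 0.0315 and adjusted p = 1 by limma). ENSGALG00000008028 had the same log2 difference as ENSGALG00000002771, 0.54, but an SE of 0.36 and an unadjusted p of 0.187 (adjusted p = 1 by limma).

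The 32 genes of the stronger class, given beside the members with no test, had median FOXL2 log2 ratios of 0.05 in preovulatory and 0.00 in prehierarchical cells. The FOXL2 ratio was within 1.2-fold in both phases for 10 of them (31.3%), against 40 of the 72 members and 70.0% of abundant genes. Of those 40 members, 31 are among the 37 in which the rule keeps the gap between the FOXL2 ratios small. The stronger class has no upper limit on its phase ratios, so the shares of the 2 classes are not compared as a plasmid result. At 1.5-fold in preovulatory cells, 1 of the 32 was higher with FOXL2 (3.13%, against 0.852% of abundant genes) and 0 were lower (against 1.64%). In prehierarchical cells 1 was higher (3.13%, against 1.70%) and 3 were lower (9.38%, against 0.852%). Of the 32, 23 (71.9%) had opposite signs in the 2 phases, against 65.6% of abundant genes.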

How the data were processed

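Messenger RNA of 4 granulosa cell cultures, 1 library per group, was measured by RNA sequencing. The authors deposited a table of FPKM values by Ensembl gene, as the file headers state. Genome build galGal4, Bowtie and RSEM were used, per the submitters' processing notes, whose versions and settings are not given here. The lowest listed value was 0.01 FPKM, and unlisted genes were set to 0. Ratios were computed here as log2 of (FPKM + 1), without further scaling, for the 10639 genes whose mean reached 1 FPKM. Limma 3.58.1 (R 4.3.3) with a variance trend was checked on simulated data with independent noise of equal size in the 4 libraries. In the measured libraries the FOXL2 ratios of the phases were negatively correlated, so the check does not show what the fit can call there. The remaining values came from Python 3.11.15 with numpy 2.4.6 and pandas 2.3.3. None of the 13819 identifiers matched the reference gene table (0 matches), so 10 lists of gene symbols and the cell type markers were not used, no sequence is printed, and the rule for named genes took identifiers: the 2 members with the highest mean FPKM, the 2 with the widest mean phase ratio, and the 2 highest and 2 lowest FOXL2 ratios in each phase. Alternatives were other pseudocounts, filters, scalings and level limits. The members, lists and rules were chosen with earlier results of these data known.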

Additional observations from a re-analysis of the deposited data

Results flagged for a closer look

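For 6 of the members named above the single library pair of each phase moved in opposite directions with the FOXL2 plasmid. No replicate tests this difference, and a part of culture or batch cannot be told apart from it. The FOXL2 log2 ratio in prehierarchical minus that in preovulatory cells was 1.59 for ENSGALG00000008028 and 1.24 for ENSGALG00000005069, which were higher with FOXL2 in prehierarchical and lower in preovulatory cells. It was -1.51 for ENSGALG00000016415, -1.14 for ENSGALG00000002991, -1.02 for ENSGALG00000010836 and -0.81 for ENSGALG00000008828, which went the other way. Most of these genes were named because a ratio was extreme, which favours a wide gap.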

How the results depend on the processing

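The number of members depends on its limits: 44 genes passed with the library medians set equal (27 of them among the 72), 179 with a mean of at least 10 FPKM and 46 with one of at least 50 FPKM. It was 77 with a pseudocount of 0.1 FPKM, 68 with one of 5 FPKM (58 shared), 76 with FPKM rescaled to the same sum (71 shared) and 57 with the medians of abundant genes set equal (48 shared), both added after seeing the data, and 72 with genes listed in all 4 tables. The prehierarchical median FOXL2 log2 ratio of the members was 0.053 with the library medians set equal and -0.072 with the rescaled FPKM; the median over 10639 genes moved alike, to 0.02 and -0.11. Of the main values recomputed, these 5 moved and 38 did not. Apart from the numbers of members of 44, 179 and 46 and the 2 medians, counts stayed within 1.5 times and medians within 0.05. Many of the 38 are counts of 0 that stayed 0, among them the members called by limma in all 7 other fits. The members with an unadjusted p under 0.05 by limma were not part of this tally, and their number did change. It was 2 in most of these fits, 1 without the filter on low values and 0 without the variance trend. No paired analysis was possible because each group has 1 library; phase is already a term of the model. Leaving out a library would leave the model without residual degrees of freedom, and count models were not run, since the files hold no counts.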
